A study of Rattus norvegicus with 69 samples.

Results

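Stage VII of the rat seminiferous epithelial cycle was compared between its earlier and later parts, written VIIa.b and VIIc.d in the labels. The 10 samples were taken by title: 5 of stage VIIa.b and 5 of stage VIIc.d, out of 49 tubule samples over 10 stage groups and 69 samples in the series. All 10 came from Sprague Dawley rats of 55 to 60 days, with no treatment and no genetic change named for either group. Of the isolated cell groups read further below, spermatogonia with early spermatocytes came from rats of 18 to 20 days. The rest of those groups came from rats of 55 to 60 days. Tubules were staged by the light they let through and cut under a microscope, and each sample pooled 2 rats with 25 segments from each rat. A sample is therefore whole tubule wall, in which a change in the number of cells of a type and a change in RNA per cell cannot be told apart. The text gives array signal, a linear brightness whose trimmed mean is 100 on each deposited array, and log2 changes computed after adding 5.11 to the signal. That addition shrinks the log2 changes of dim probe sets.

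The seminiferous epithelium holds several generations of germ cells stacked around Sertoli cells, and the generations advance together through a repeating series of stages. In stage VII the elongated spermatids leave their deep recesses in the Sertoli cells and move to the tubule lumen, from which they are released at the end of stage VIII. Round spermatids spread their acrosome over the nucleus at this time, and preleptotene spermatocytes at the base prepare for the last DNA synthesis before meiosis. The stage is also known as one of strong androgen dependence and of retinoic acid action.

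The arrays of the later stage differed from each other in a control for RNA integrity, the ratio of signal at the 3' end to signal at the 5' end of a control transcript, which is higher where copies are shortened. The GAPDH ratio was 0.993, 0.970, 1.15, 1.14 and 1.19 in VIIa.b replicates 1 to 5 and 1.17, 1.78, 2.05, 1.35 and 1.34 in VIIc.d replicates 1 to 5. VIIc.d replicates 2 and 3 stood highest and VIIc.d replicate 1 lay within the VIIa.b range. The mean was 1.09 ± 0.101 (SD, n = 5) against 1.54 ± 0.367, a difference of 0.47 in mean log2 ratio (exact permutation test, two-sided, p = 0.0159, and 0.0317 adjusted over GAPDH and actin). The difference was 0.20 with the middle probe set in place of the 5' one (p = 0.206, exact permutation), and the exact sign-flip permutation over the numbered pairs gave p = 0.0625, the smallest that 5 pairs allow. The actin ratio averaged 1.79 ± 0.106 and 2.21 ± 0.538, with 2.86 and 2.71 in VIIc.d replicates 2 and 3 (exact permutation p = 0.19). Its lowest VIIc.d value, 1.76, lay inside the VIIa.b range of 1.67 to 1.96, so the groups overlapped. Array medians spanned 44.9 to 49.2 over the 10 samples. The mean correlation of an array with others of its own stage was 0.948 to 0.960 in VIIa.b and 0.945 to 0.950 in VIIc.d, and with arrays of the opposite stage 0.927 to 0.942. VIIc.d replicate 1 was the least separated, at 0.945 with its own stage and 0.942 with VIIa.b.

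**Figure D1:**
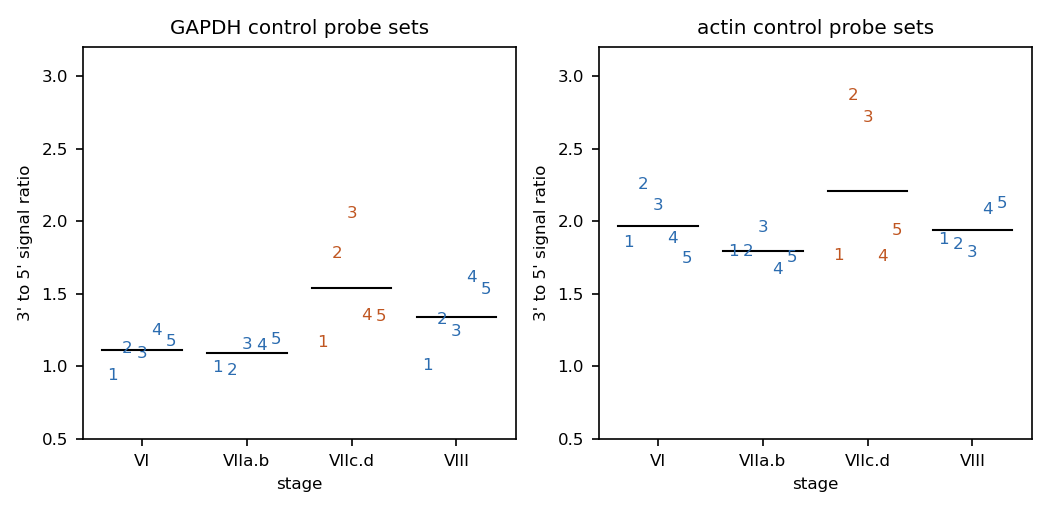
Ratio of 3' to 5' control signal on each array (vertical axis, no unit) by stage, for GAPDH (left) and actin (right). Digits are replicate numbers and bars are means of 5 arrays. VIIc.d replicates 2 and 3 are the highest of the 20 arrays shown for both controls, at 1.78 and 2.05 for GAPDH.

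From VIIa.b to VIIc.d, 262 of 31042 probe sets (0.844%) changed at least 2-fold with an adjusted p under 0.05 (limma, Benjamini-Hochberg over all probe sets), and these are the called probe sets. Signal was higher in VIIc.d for 152 of them (0.49%) and lower for 110 (0.354%). The called probe sets with a single gene name stood for 209 genes, 119 higher and 90 lower. The median called rise was 1.31 on the log2 scale and the median called fall -1.27, against a median of 0.03 over all probe sets. Changes past 4-fold were few, with 4 probe sets higher and 5 lower. Without the 2-fold condition, 631 probe sets (2.03%) rose and 745 (2.4%) fell. The 5 samples of one stage all lay above the 5 of the other in 191 of the 262 called probe sets, and in 6.69% of all probe sets. Many called probe sets were dim: 65 had a mean signal below 43.7, the median of the whole table, even in their higher stage.

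The called changes were also read without the arrays of high control ratio. Without VIIc.d replicates 2 and 3, 123 probe sets were called higher and 141 lower, 162 of them among the original 262, so that the share called higher went from 58.0% to 46.6%. All 262 called probe sets kept their sign in that fit, but only 95 of the 152 rises and 75 of the 110 falls still had an adjusted p under 0.05. Past 2-fold there were 142 of the 152 and 87 of the 110, whatever their adjusted p. The median log2 change was 1.29 over the 152 and -1.35 over the 110. That fit had fewer VIIc.d arrays than the main one. With the log2 GAPDH ratio of each array as a covariate, 126 were called higher and 115 lower, and 151 were shared with the original calls. VIIc.d replicates 2 and 3 were the most extreme samples in 27 of the 152 rises (17.8%) and 19 of the 110 falls (17.3%), against 11.9% and 15.9% of all probe sets in the same directions. Among the 10 fits without 1 array, the one without VIIc.d replicate 1 moved the number of falls most, from 110 to 167, with 161 rises. That replicate was the VIIc.d sample closest to VIIa.b in 56 of the 152 rises (36.8%) and 34 of the 110 falls (30.9%), against 25.6% and 22.4% of all probe sets in the same directions. The part of RNA integrity in these results was otherwise not tested.

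**Figure D2:**
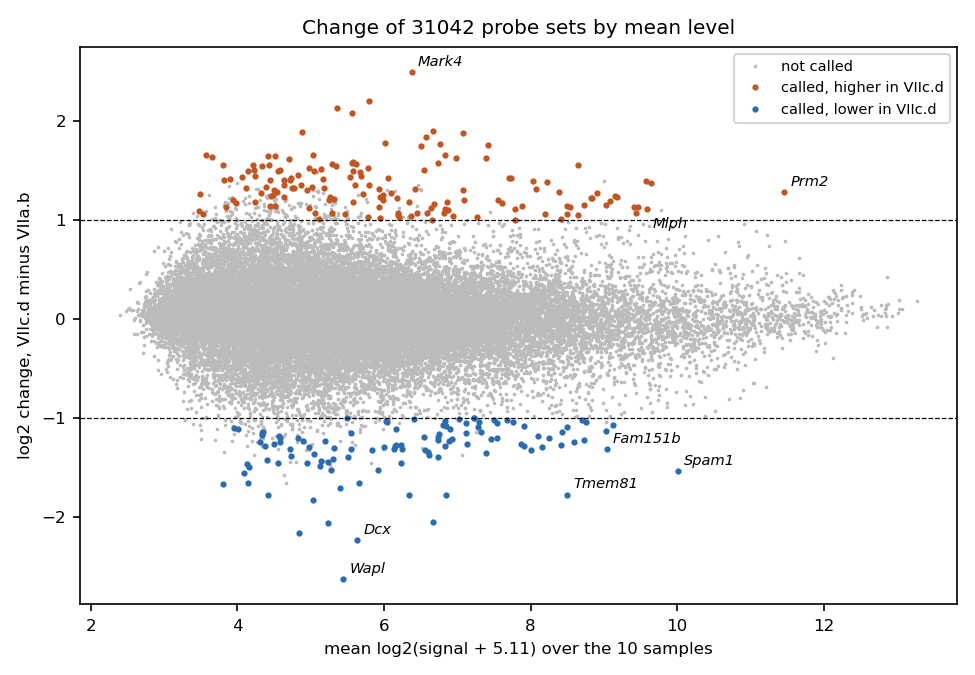
Log2 change from VIIa.b to VIIc.d (vertical axis) against the mean log2 level over the 10 samples (horizontal axis) for 31042 probe sets, with the 262 called probe sets in colour and dashed lines at 2-fold. The largest changes, such as Mark4 and Wapl, lie at middle levels, while Prm2 and Spam1 are the brightest called genes in the 2 directions.

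Of the 12 genes with the largest rises, 3 went up more than 4-fold from low levels. Mark4 codes for a kinase that loosens microtubules by acting on their associated proteins. Its signal was 14.2, 56.6, 16.2, 23.4 and 67.6 in VIIa.b replicates 1 to 5 and 178, 212, 191, 192 and 189 in VIIc.d replicates 1 to 5. The 5 VIIc.d samples lay close together, well above a scattered VIIa.b group. Mark4 rose by 2.49 on the log2 scale (SE 0.44, 5.63-fold, adjusted p = 0.000119). A second probe set of the gene had 122, 131, 111, 118 and 130 in VIIa.b replicates 1 to 5 and 308, 317, 326, 380 and 357 in VIIc.d replicates 1 to 5, with no overlap. It rose by 1.42 on the log2 scale (SE 0.40, 2.68-fold, adjusted p = 0.0245), and its adjusted p was 0.0593 without VIIa.b replicate 3, 0.0595 without VIIc.d replicate 4, 0.0553 without VIIc.d replicate 5 and 0.0786 without VIIc.d replicates 2 and 3. The third Mark4 probe set did not pass the test.

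Pdk1, a kinase that restrains the entry of pyruvate into the citric acid cycle, had signals of 29.8, 8.23, 9.68, 24 and 8.95 in VIIa.b replicates 1 to 5 and 84.3, 54.1, 64.5, 109 and 105 in VIIc.d replicates 1 to 5. Every VIIc.d sample exceeded every VIIa.b sample, and the gene rose by 2.13 on the log2 scale (SE 0.31, 4.39-fold, adjusted p = 3.36e-06). Its other probe set did not pass. Fbxo2 codes for a subunit of ubiquitin ligases that recognises sugar chains on proteins. Its values were 7.08, 23.4, 10.9, 30.1 and 27.4 in VIIa.b replicates 1 to 5 and 74.1, 83.8, 94.8, 119 and 96.1 in VIIc.d replicates 1 to 5, again without overlap, and it rose by 2.09 on the log2 scale (SE 0.30, 4.25-fold, adjusted p = 2.48e-06). Fbxo2 was near the bottom of the scale in all isolated cells, from 0.897 in Sertoli cells to 5.49 in round spermatids, while its mean over the 5 stage VIII samples was 143.

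The next rises ran from 1.62 to 1.90 on the log2 scale, with the 2 stages apart in every gene. Scamp3, a membrane protein of the secretory and endosomal system, went from 49.9 ± 22.7 to 177 ± 31.1 (mean ± SD, n = 5), and Smpd1, the lysosomal acid sphingomyelinase, from 55.2 ± 14.6 to 196 ± 8.57. Their adjusted p-values were 0.00117 and 3.36e-06. Smpd1 was the steadiest of the set in VIIc.d, with 196.6 to 202.5 in all but replicate 3, which had 181.4. The tetraspanin gene Cd37 went from 31.1 ± 12 to 115 ± 13.7. Cc2d1a, a scaffold protein and repressor of transcription, went from 68.1 ± 21.6 to 259 ± 51. Phf1, a Polycomb-associated reader of histone methylation, went from 46 ± 15.2 to 169 ± 55.7. Fam20b, a kinase that acts on the sugar link of proteoglycans, went from 15 ± 9.51 to 53.7 ± 10.2, and 1 of its 3 other probe sets rose. Srcin1, known as an inhibitor of Src kinase, went from 95.3 ± 36 to 291 ± 31.3. Leng1 and Mroh3 completed the 12 largest rises, at 69.2 ± 19.2 to 218 ± 21.4 and 48.5 ± 11.1 to 192 ± 25.8. Cc2d1a, Srcin1 and Leng1 each had another probe set, which did not pass.

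**Figure D3:**
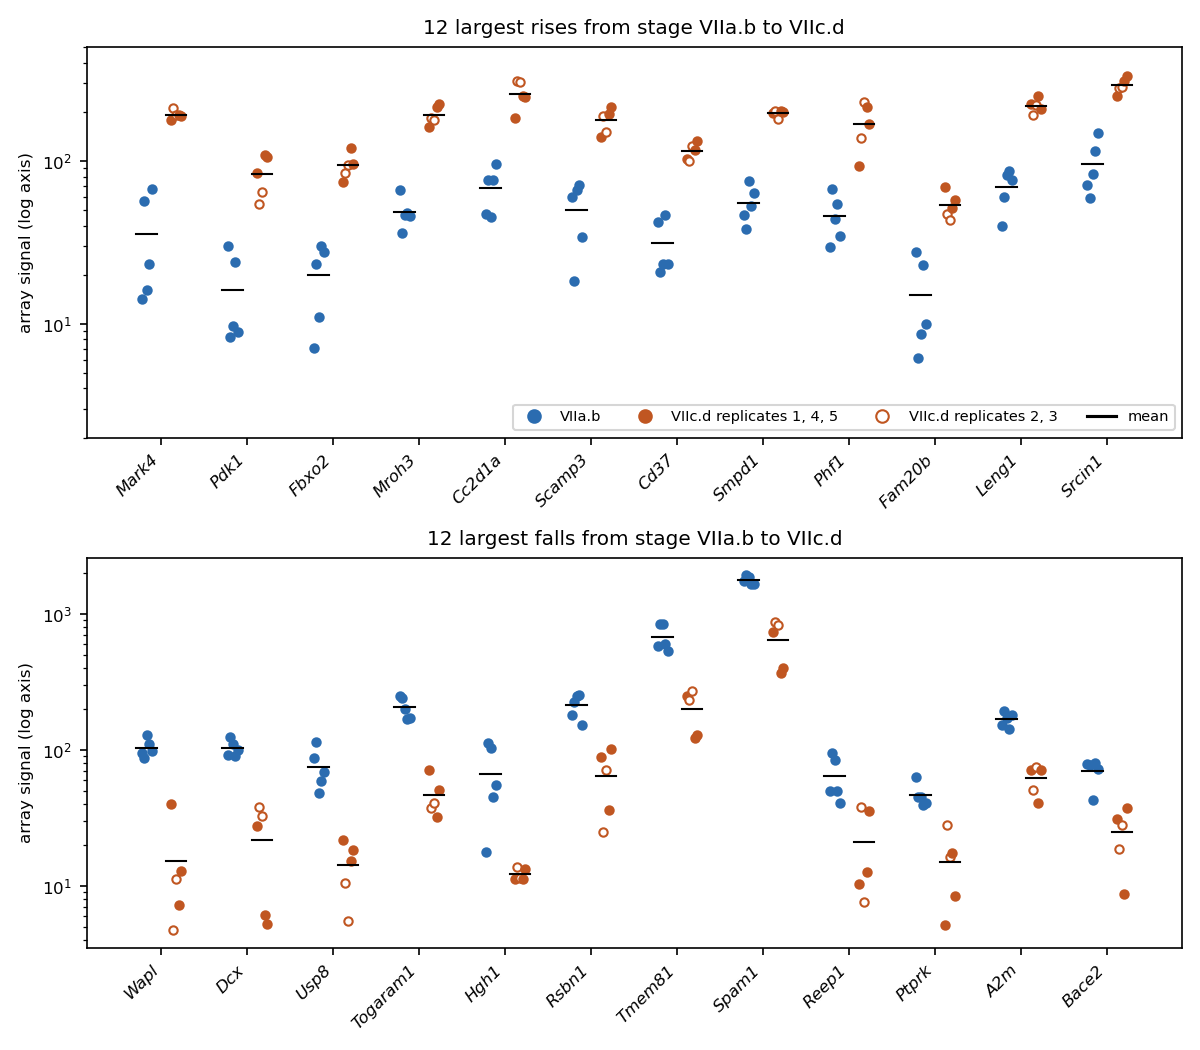
Signal on a log axis in each of the 10 samples for the 12 genes with the largest rises (top) and the 12 with the largest falls (bottom) from VIIa.b (blue) to VIIc.d (orange), with VIIc.d replicates 2 and 3 as open circles and means as bars. The 2 stages do not overlap in any of the 24 genes, which the choice of genes required. VIIc.d replicates 4 and 5 are the lowest samples for Spam1, Tmem81 and Dcx.

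Ordered by adjusted p instead, which favours steady genes over large changes, the rises were led by brighter genes. These were picked after their values were seen. Mlph codes for melanophilin, a link between Rab27a and myosin on moving organelles. Its signal was 560, 406, 494, 586 and 561 in VIIa.b replicates 1 to 5 and 1020, 1135, 1128, 1160 and 1179 in VIIc.d replicates 1 to 5, and no VIIc.d sample came near the VIIa.b range. Mlph rose by 1.11 on the log2 scale (SE 0.08, 2.16-fold, adjusted p = 3.26e-13). Atosb rose by 1.22 on the log2 scale (SE 0.10, 2.34-fold, adjusted p = 1.55e-12), Gstcd rose by 1.29 on the log2 scale (SE 0.12, 2.44-fold, adjusted p = 1.11e-10) and Ubald1 rose by 1.40 on the log2 scale (SE 0.14, 2.63-fold, adjusted p = 4.63e-10), all with no overlap between the stages. Prkar2a, a regulatory subunit of the cyclic AMP-dependent kinase, went from 472 ± 23.3 to 1045 ± 98.3 and rose by 1.14 on the log2 scale (SE 0.11, 2.2-fold, adjusted p = 2.45e-10). Mmd2 went from 119 ± 11.4 to 284 ± 48.3.

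Tpm3, a tropomyosin that lines actin filaments, was called with 5 of its 12 probe sets, more than any other gene, and 6 passed the test upwards. Its brightest called probe set had 348, 361, 384, 369 and 416 in VIIa.b replicates 1 to 5 and 804, 820, 879, 1016 and 937 in VIIc.d replicates 1 to 5. The VIIc.d values were all above the VIIa.b values, and it rose by 1.23 on the log2 scale (SE 0.10, 2.35-fold, adjusted p = 6.68e-12). Over the 5 called probe sets the folds ran from 2.06 to 2.94. Several of them are of the kind that can also bind transcripts of related genes, so they are not 5 separate readings. Other genes called more than once were Mark4 and Src upwards, with 2 of 3 and 2 of 4 probe sets, and Togaram1 and Hsf2 downwards, with 2 of 3 and 2 of 4.

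The largest fall was in Wapl, the factor that releases cohesin rings from chromosomes. Its signal was 95.7, 86.6, 130, 110 and 98.4 in VIIa.b replicates 1 to 5 and 40.2, 4.73, 11.4, 7.32 and 12.9 in VIIc.d replicates 1 to 5. All VIIc.d samples lay below all VIIa.b samples, and VIIc.d replicate 1 was the highest of them. Wapl fell by 2.63 on the log2 scale (SE 0.34, 6.19-fold, adjusted p = 2.91e-07). One of its 2 other probe sets also fell and the third did not pass. Usp8, a deubiquitinase of the endosomal sorting route, had 86.6, 115, 48.4, 59 and 68.4 in VIIa.b replicates 1 to 5 and 21.8, 10.6, 5.56, 15.3 and 18.4 in VIIc.d replicates 1 to 5 and fell by 2.06 on the log2 scale (SE 0.47, 4.18-fold, adjusted p = 0.00347). Its adjusted p was 0.0700 without VIIc.d replicates 2 and 3 and 0.225 with the GAPDH ratio as a covariate, and neither of its 2 other probe sets passed.

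Spam1, a hyaluronidase of the acrosome and sperm surface, was the brightest gene called lower. It measured 1737, 1910, 1867, 1648 and 1640 in VIIa.b replicates 1 to 5 and 733, 873, 827, 366 and 402 in VIIc.d replicates 1 to 5. The stages did not overlap, and within VIIc.d, replicates 4 and 5 stood apart at the low end. Spam1 fell by 1.54 on the log2 scale (SE 0.30, 2.91-fold, adjusted p = 0.000538). Tmem81, a membrane protein of sperm, had 577, 844, 841, 601 and 530 in VIIa.b replicates 1 to 5 and 247, 234, 272, 123 and 129 in VIIc.d replicates 1 to 5, again with VIIc.d replicates 4 and 5 lowest. It fell by 1.78 on the log2 scale (SE 0.25, 3.43-fold, adjusted p = 2.48e-06). Togaram1, a microtubule regulator of cilia, had 249, 239, 200, 168 and 172 in VIIa.b replicates 1 to 5 and 71, 37.5, 41, 32.4 and 50.6 in VIIc.d replicates 1 to 5. It fell by 2.06 on the log2 scale (SE 0.27, 4.16-fold, adjusted p = 6.11e-07), and a further probe set of it fell by 1.05 on the log2 scale (SE 0.16, 2.07-fold, adjusted p = 9.81e-06).

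Dcx, which codes for doublecortin, a microtubule-binding protein known from migrating neurons, measured 91.8, 125, 110, 90.2 and 99.9 in VIIa.b replicates 1 to 5 and 27.8, 37.9, 32.7, 6.15 and 5.26 in VIIc.d replicates 1 to 5. VIIc.d replicates 4 and 5 were at the bottom of the scale and the other 3 VIIc.d samples between 27.8 and 37.9, still below every VIIa.b sample. Dcx fell by 2.24 on the log2 scale (SE 0.38, 4.71-fold, adjusted p = 7.58e-05), while its other probe set did not pass. Hgh1 fell by 1.83 on the log2 scale (SE 0.24, 3.55-fold, adjusted p = 3.58e-07), with a scattered VIIa.b group of 17.7, 112, 103, 45.2 and 55.3 above VIIc.d values of 11.2 to 13.8. Rsbn1, known from round spermatids, went from 212 ± 44 to 64.4 ± 33.1, and its adjusted p of 0.00681 became 0.0796 without VIIc.d replicates 2 and 3. Neither of the 2 other Hgh1 probe sets passed, nor did the other Rsbn1 probe set.

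The remaining falls among the 12 largest were smaller. Reep1, which shapes the endoplasmic reticulum, went from 64.1 ± 24 to 20.9 ± 14.8 and Ptprk, a receptor tyrosine phosphatase, from 46.8 ± 9.78 to 15.1 ± 8.93. Both passed the test in every alternative, but none of the 3 other Ptprk probe sets passed. Bace2, a membrane protease, went from 70.3 ± 15.8 to 24.9 ± 11.3 (adjusted p = 0.0135), with adjusted p = 0.0817 without VIIc.d replicate 4, 0.0562 without VIIc.d replicates 2 and 3, and 0.129 with the GAPDH covariate. The other Bace2 probe set did not pass. A2m, the broad protease inhibitor alpha-2-macroglobulin, measured 153, 194, 173, 141 and 182 in VIIa.b replicates 1 to 5 and 70.7, 50.5, 75.5, 40.9 and 71.7 in VIIc.d replicates 1 to 5. No sample of the later stage reached the earlier range, and A2m fell by 1.40 on the log2 scale (SE 0.31, 2.64-fold, adjusted p = 0.00249). With the GAPDH covariate its adjusted p was 0.0657.

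Ordered by adjusted p, and again picked after their values were seen, the falls were led by Gpc4, a glypican that carries heparan sulfate at the cell surface. It measured 501, 596, 599, 499 and 463 in VIIa.b replicates 1 to 5 and 197, 318, 280, 160 and 162 in VIIc.d replicates 1 to 5. All VIIc.d samples were lower, replicates 4 and 5 most. Gpc4 fell by 1.28 on the log2 scale (SE 0.14, 2.43-fold, adjusted p = 1.07e-08). Hsf2, a heat shock transcription factor active in spermatogenesis, fell by 1.29 on the log2 scale (SE 0.16, 2.45-fold, adjusted p = 2.32e-07) and, with another probe set, fell by 1.16 on the log2 scale (SE 0.20, 2.23-fold, adjusted p = 8.14e-05). Fam151b went from 829 ± 73.3 to 334 ± 72.2, Tasor2 from 597 ± 120 to 249 ± 48.9, Prp2l1 from 508 ± 38.5 to 229 ± 42.1, the lipoprotein receptor Vldlr from 234 ± 23.7 to 104 ± 14.6 and the kinase Tesk2 from 347 ± 27.1 to 162 ± 27.1. All of these falls were between -1.09 and -1.32 on the log2 scale, and no VIIc.d sample overlapped VIIa.b.

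The genes were then read by function, in 24 lists in which 443 of 570 names were measured, with the brightest probe set for each gene. Over all 14217 named genes 6.84% had an adjusted p under 0.05, with 3.34% risen and 3.5% fallen, and 1.02% were called, around a median of 0.03. List counts below use the same adjusted p. Among fallen genes named below, no further probe set passed for Agfg1, Odf4, Ccna1, Ccnb1, Kif23, Idi1, Cyp51 and Fdx1. The same held among risen genes for Fstl3, Dnm3, Lig1, Incenp, Top2a, Jund and Marchf10. In the acrosome and round spermatid list 1 of 18 genes rose and 4 fell, with a list median of -0.13. Beside Spam1, the lysozyme-like sperm protein gene Spaca3 went from 2653 ± 116 to 1702 ± 250 (log2 change -0.65, adjusted p = 0.0244), and its adjusted p lay between 0.0523 and 0.0805 when VIIa.b replicate 1 or 3 or VIIc.d replicate 4 or 5 was left out. Zpbp2, which helps shape the sperm head and binds the zona pellucida, measured 134, 196, 229, 135 and 116 in VIIa.b replicates 1 to 5 and 77.5, 75.8, 102, 49.6 and 40.7 in VIIc.d replicates 1 to 5 and fell by 1.19 on the log2 scale (SE 0.20, 2.28-fold, adjusted p = 6.96e-05). Its VIIc.d replicates 4 and 5 were again the lowest. Agfg1, needed for the acrosome to form, went from 611 ± 79.9 to 468 ± 35.3 with an overlap of the stages (adjusted p = 0.00664, 0.0945 without VIIc.d replicates 2 and 3). Tex101, a surface glycoprotein of germ cells, was the riser, at 715 ± 32.8 to 899 ± 146 (adjusted p = 0.0492), and did not pass in 14 of 20 alternatives.

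Elongating spermatids replace histones first by transition proteins and then by protamines. Of 10 genes in that list only Prm2, a protamine, passed the test, and the list median was 0.22. Prm2 measured 1368, 1981, 2246, 1720 and 1839 in VIIa.b replicates 1 to 5 and 3413, 4835, 5091, 4261 and 4588 in VIIc.d replicates 1 to 5. The later stage was higher in every sample, with replicate 1 the lowest of it and replicate 1 also the lowest of VIIa.b. Prm2 rose by 1.28 on the log2 scale (SE 0.19, 2.43-fold, adjusted p = 4.08e-06). The transition protein gene Tnp2 went from 6433 ± 308 to 8730 ± 1289, a difference of 0.43 on the log2 scale that did not pass (adjusted p = 0.501). In Tnp2, VIIc.d replicate 1 lay at 6516 inside the VIIa.b range and the other 4 VIIc.d samples were between 9056 and 9909.

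Among 33 genes of the flagellum, fibrous sheath and outer dense fibres 1 rose and 4 fell, with a median of 0.03. The falls were in the tektins Tekt2, from 2629 ± 116 to 1695 ± 312, and Tekt4, from 1478 ± 79.1 to 1019 ± 141, in the anchoring protein gene Akap14, from 351 ± 11.1 to 228 ± 26.2, and in Odf4, from 896 ± 58.4 to 633 ± 40.2. Their log2 changes ran from -0.50 to -0.65. Dnah1, a heavy chain of the inner dynein arms, rose from 210 ± 21.3 to 304 ± 27.2. The fibrous sheath gene Cabyr had a larger difference, -1.38, with no overlap, but missed the threshold (adjusted p = 0.057). A further probe set of Ift81 fell, while the brightest Ift81 probe set did not pass.

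Of 17 genes for sperm ion channels, motility signalling and the sperm surface, none rose and 3 fell, with a median of -0.13. Slco6b1, an organic anion transporter of the testis, measured 1181, 1295, 1293, 1263 and 1274 in VIIa.b replicates 1 to 5 and 677, 786, 739, 608 and 598 in VIIc.d replicates 1 to 5. The stages were far apart for their spread, and Slco6b1 fell by 0.89 on the log2 scale (SE 0.11, 1.85-fold, adjusted p = 5.73e-08). Pde1a, a phosphodiesterase, was dim at 25.5 ± 2.07 to 8.55 ± 5.54 and fell by 1.25 on the log2 scale (SE 0.30, 2.38-fold, adjusted p = 0.00622). Adam2, a subunit of the sperm surface complex fertilin, went from 906 ± 76.2 to 704 ± 60.9. Among 10 spermatid transcription regulators Crem, the cyclic AMP-responsive activator of spermatid genes, fell from 1088 ± 87.1 to 763 ± 85.2 (log2 change -0.51, adjusted p = 0.00254, 0.0523 with the GAPDH covariate), and 5 other Crem probe sets did not pass. Tbpl1, a relative of the TATA-binding protein, went from 1226 ± 174 to 1019 ± 54.5, with adjusted p = 0.0382 and up to 0.184 with 1 array left out. The list median was -0.05.

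For Sertoli cells, 2 of 17 markers rose and 5 fell, with a median of -0.07. Their summed signal was 11900 to 12760 in VIIa.b and 8882 to 10380 in VIIc.d, so the sums did not overlap. Bright genes led the sums: Clu averaged 3334 and 3178, Ctsl 2021 and 1062, and Prnd 1881 and 1352 in VIIa.b and VIIc.d. Of these, Clu and Prnd did not pass. Wt1, Gata4, Gata1, Inha and Dhh did not pass either, with log2 changes of 0.17, 0.24, 0.04, 0.25 and -0.09. Ctsl codes for the protease cathepsin L. Its brightest probe set had 2182, 1931, 2040, 1986 and 1965 in VIIa.b replicates 1 to 5 and 1215, 1134, 1125, 904 and 932 in VIIc.d replicates 1 to 5. The VIIc.d samples were all lower, with replicates 4 and 5 lowest, and Ctsl fell by 0.93 on the log2 scale (SE 0.13, 1.91-fold, adjusted p = 2e-06). Another Ctsl probe set fell by 1.02 on the log2 scale (SE 0.18, 2.04-fold, adjusted p = 0.000146). Cst9l, a cystatin-like protease inhibitor, measured 1129, 1163, 1118, 1121 and 1090 in VIIa.b replicates 1 to 5 and 730, 722, 721, 586 and 556 in VIIc.d replicates 1 to 5 and fell by 0.77 on the log2 scale (SE 0.10, 1.7-fold, adjusted p = 9.07e-07). The water channel gene Aqp8 went from 1004 ± 99.5 to 666 ± 117 (log2 change -0.60, adjusted p = 1.01e-05).

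Not all Sertoli cell genes went down. Shbg, the androgen-binding protein of Sertoli cells, went from 276 ± 52.8 to 410 ± 23.7 and rose by 0.58 on the log2 scale (SE 0.12, 1.5-fold, adjusted p = 0.000612), with no overlap. Sertoli cells also make inhibin B, whose beta subunit Inhbb was dim, at 11.4, 19, 3.87, 5.07 and 25.9 in VIIa.b replicates 1 to 5 and 50.7, 32.5, 17.1, 35.9 and 37.8 in VIIc.d replicates 1 to 5. It rose by 1.24 on the log2 scale (SE 0.33, 2.36-fold, adjusted p = 0.019), with 1 VIIc.d sample inside the VIIa.b range. Inhbb lost the call without VIIa.b replicate 3 (adjusted p = 0.101), VIIa.b replicate 4 (0.0786) or VIIc.d replicate 1 (0.0626). A second, dim probe set of the marker Clu, which codes for clusterin, fell from 60.4 ± 10.3 to 21.8 ± 14.8 (adjusted p = 0.0124), with 0.0635 without VIIc.d replicate 3, while the brightest Clu probe set did not pass. The receptor gene Amhr2 and the gene Tsx fell by 0.40 and 0.28 on the log2 scale, with adjusted p up to 0.149 and 0.101 when 1 array was left out.

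Of 14 androgen-responsive Sertoli cell genes none rose and 2 fell, Serpina5 and Tsx, with a median of 0.11. Serpina5, a serine protease inhibitor, went from 740 ± 36.2 to 606 ± 105 with overlap of the stages (adjusted p = 0.0282, up to 0.129 with 1 array left out). The homeobox gene Rhox5, a widely used androgen target, did not pass (log2 change 0.40, adjusted p = 0.786). In the list of inhibin, activin and growth factor signalling, 2 of 29 genes rose and 1 fell, with a median of 0.07. Fstl3, a binding protein that blocks activin, measured 104, 50.3, 61.1, 92.2 and 148 in VIIa.b replicates 1 to 5 and 225, 174, 184, 212 and 220 in VIIc.d replicates 1 to 5. The later stage was higher throughout, and Fstl3 rose by 1.20 on the log2 scale (SE 0.28, 2.3-fold, adjusted p = 0.00554). The activin subunit gene Inhba had a difference of 1.30 that did not pass (adjusted p = 0.12), with VIIa.b values from 1.96 to 52.5 that spanned all but 1 of the VIIc.d values.

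Retinoic acid is made from retinol in 2 steps, by retinol dehydrogenases such as Rdh10 and retinaldehyde dehydrogenases of the Aldh1a family, and is broken down by Cyp26 enzymes. Of 23 genes of retinoic acid handling and meiotic entry 1 rose and 1 fell, with a median of 0.14. Rdh10 measured 1375, 1166, 1100, 1415 and 1327 in VIIa.b replicates 1 to 5 and 2116, 1845, 1869, 2142 and 2237 in VIIc.d replicates 1 to 5. The samples of the 2 stages did not overlap, and Rdh10 rose by 0.68 on the log2 scale (SE 0.17, 1.6-fold, adjusted p = 0.0091). Its signal was 164 in stage VI and 2265 in stage VIII, below and above those of the 2 parts of stage VII. The other Rdh10 probe set did not pass. Aldh1a3 went from 80.5 ± 21.2 to 44 ± 8.56 (log2 change -0.78, adjusted p = 0.00398, 0.0705 with the GAPDH covariate). Cyp26a1 was dim, at 34.7 ± 11.6 to 42.2 ± 11.2, and did not pass (adjusted p = 0.594).

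At the contacts between Sertoli cells and spermatids, junctions are taken down as spermatids approach release. Of 34 genes of adhesion and junctions 3 rose and none fell by their brightest probe set, with a median of 0.09. For Jam2, Ctnnb1 and Vcl a further probe set fell, while the brightest did not pass. Src, a kinase of adhesion turnover, was called with 2 probe sets. The first had 20, 48.6, 35.2, 17 and 24.8 in VIIa.b replicates 1 to 5 and 87.5, 97.8, 92, 95.1 and 73.2 in VIIc.d replicates 1 to 5, without overlap, and rose by 1.53 on the log2 scale (SE 0.32, 2.89-fold, adjusted p = 0.00127). The second, brighter one rose by 1.18 on the log2 scale (SE 0.33, 2.27-fold, adjusted p = 0.0272), and its adjusted p was 0.157 without VIIa.b replicate 2, 0.0762 without VIIa.b replicate 1, 0.0632 without VIIc.d replicate 4 and 0.0629 without VIIc.d replicate 5. It was 0.0687 without VIIc.d replicates 2 and 3, and 0.109 with the GAPDH covariate. Fscn3, an actin-bundling fascin of spermatids, went from 1031 ± 70.2 to 1798 ± 49.6 and rose by 0.80 on the log2 scale (SE 0.16, 1.74-fold, adjusted p = 0.00067). Dnm3, a dynamin, went from 132 ± 29.2 to 179 ± 10.2 (adjusted p = 0.046, up to 0.163 with 1 array left out). For Nectin2, a Sertoli cell adhesion molecule at the spermatid contact, a dim probe set rose by 1.52 on the log2 scale (SE 0.41, 2.86-fold, adjusted p = 0.0175), with an adjusted p of 0.0965 without VIIa.b replicate 1, 0.0528 without VIIa.b replicate 5, 0.0731 without VIIc.d replicates 2 and 3, and 0.17 with the GAPDH covariate. The brightest Nectin2 probe set went from 87 ± 18.5 to 122 ± 9.32 and did not pass (adjusted p = 0.474).

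Sertoli cells take up and digest the cytoplasm that spermatids shed. Of 28 genes of lysosomes, endocytosis and engulfment 1 rose and 3 fell, with a median of 0.05. The falls were in Ctsl, above, in the cathepsin gene Ctsk, from 451 ± 41.8 to 255 ± 40.9, and in Psap, the precursor of the saposins, from 1590 ± 174 to 1092 ± 107. Ctsk and Psap had adjusted p-values of 0.0305 and 0.0241, and up to 0.0951 and 0.0846 when 1 array was left out. Ctsh, another cathepsin, went the opposite way, from 148 ± 15.1 to 238 ± 18.6, and rose by 0.67 on the log2 scale (SE 0.12, 1.59-fold, adjusted p = 0.000148). Of 21 proteases and inhibitors none rose and 4 fell, all of them inhibitors: A2m, Cst9l, Serpina5 and Cst3, with a list median of 0.03. A further probe set of Timp2 also fell, while the brightest Timp2 probe set did not pass. Cst3, the secreted cystatin C, went from 1024 ± 11.7 to 802 ± 119 (adjusted p = 0.00214, 0.174 without VIIc.d replicates 2 and 3).

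Among germ cells before the spermatid, 2 of 17 spermatogonial genes rose and none fell, with a median of 0.15. Epcam, an epithelial adhesion molecule, measured 284, 270, 240, 318 and 270 in VIIa.b replicates 1 to 5 and 506, 617, 592, 573 and 589 in VIIc.d replicates 1 to 5. The lowest VIIc.d value was well above the highest VIIa.b value, and Epcam rose by 1.05 on the log2 scale (SE 0.14, 2.07-fold, adjusted p = 6.87e-07). In isolated cells Epcam was not particular to spermatogonia. It averaged 178.2 in spermatogonia with early spermatocytes, 172.1 in Sertoli cells, 134.6 in round spermatids and 112.5 in pachytene spermatocytes. Uchl1, a neuronal and spermatogonial deubiquitinase, went from 194 ± 16.2 to 308 ± 61.2, with VIIc.d replicate 1 inside the VIIa.b range (adjusted p = 0.000496). Gfra1, a receptor of undifferentiated spermatogonia, went from 242 ± 40.7 to 416 ± 92.8 with no overlap but did not pass (adjusted p = 0.0778). Of 28 genes of DNA replication only Lig1, the replicative DNA ligase, passed. It went from 130 ± 8.73 to 236 ± 7.05 and rose by 0.84 on the log2 scale (SE 0.15, 1.79-fold, adjusted p = 0.000244). The list median of 0.18 stood above the 0.03 of all genes, and 27 of the 28 did not pass.

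Genes of the G2 and M phases went both ways, with 2 of 28 higher, 5 lower and a median of 0.11. Ccna1, the cyclin of male meiosis, fell from 603 ± 48.9 to 340 ± 39.2 and Ccnb1, the mitotic cyclin B1, from 565 ± 35.5 to 338 ± 50.1, both with no overlap. Bub1 fell by 0.53, Plk1 by 0.76 and Kif23 by 0.66 on the log2 scale. Plk1 had an adjusted p of 0.0803 without VIIc.d replicate 5, 0.0617 without VIIa.b replicate 2 and 0.055 without VIIa.b replicate 3, and Kif23 of up to 0.134 with 1 array left out. Incenp, a chromosomal passenger protein, rose from 150 ± 12.3 to 227 ± 34.9 and Top2a from 222 ± 18.6 to 298 ± 45.1. Top2a had an adjusted p of 0.0889 without VIIc.d replicate 3, 0.0544 without VIIa.b replicate 1, 0.246 without VIIc.d replicates 2 and 3, and 0.22 with the GAPDH covariate. In the list of meiotic recombination Tex15 alone of 15 genes passed, falling from 141 ± 14.4 to 104 ± 15.5 (adjusted p = 0.032, up to 0.121 with 1 array left out), and the median was -0.15.

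Of 16 pachytene spermatocyte genes 3 rose and 2 fell, with a median of 0.12. Ybx2, an RNA-binding protein that stores germ cell messages, was the brightest of the 3 that rose, from 2163 ± 249 to 3756 ± 512 (log2 change 0.79, adjusted p = 0.0124). It reached 0.0914 without VIIc.d replicates 2 and 3 and 0.238 with the GAPDH covariate. Tdrd1, of the piRNA pathway, went from 1349 ± 34.3 to 1744 ± 97.2 and Tcp1, a chaperonin subunit, from 1997 ± 97.5 to 2437 ± 85.1. Without VIIc.d replicates 2 and 3 their adjusted p-values were 0.056 and 0.104, and that of Tcp1 was 0.06 without VIIa.b replicate 2. In 14 ubiquitin and proteasome genes 2 rose, Ube2j1 and Marchf10, and the median was 0.02. Neither passed without VIIc.d replicate 3, where the adjusted p was 0.11 for Ube2j1 and 0.0892 for Marchf10. The values were 0.269 and 0.352 without VIIc.d replicates 2 and 3, and 0.329 and 0.211 with the GAPDH covariate. A further probe set for the deubiquitinase Usp7 measured 170, 123, 112, 95.3 and 111 in VIIa.b replicates 1 to 5 and 96.6, 29.6, 17, 30.5 and 64.5 in VIIc.d replicates 1 to 5, with VIIc.d replicate 1 inside the VIIa.b range. It fell by 1.46 on the log2 scale (SE 0.38, 2.75-fold, adjusted p = 0.0152), but its adjusted p was 0.0847 without VIIc.d replicate 3, 0.052 without VIIa.b replicate 1 and 0.278 without VIIc.d replicates 2 and 3. With the GAPDH covariate its log2 change was -0.73 (adjusted p = 0.389). The 3 other Usp7 probe sets did not pass. The brightest of them averaged 1828 in VIIa.b and 1503 in VIIc.d (log2 change -0.28, adjusted p = 0.0828).

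Of 19 genes of cholesterol synthesis and transport none rose and 3 fell, with a median of 0.02. Sqle, squalene epoxidase, measured 516, 552, 586, 636 and 544 in VIIa.b replicates 1 to 5 and 306, 372, 301, 281 and 344 in VIIc.d replicates 1 to 5 and fell by 0.81 on the log2 scale (SE 0.17, 1.76-fold, adjusted p = 0.00112). Idi1 went from 380 ± 20.3 to 259 ± 24.8 and Cyp51 from 503 ± 34.8 to 305 ± 55.5, the latter with an adjusted p of up to 0.078 when 1 array was left out. Among 22 immediate early and heat shock genes, many of which can respond to handling of tissue, Jund and Egr1 rose and none fell, with a median of 0.15. The other 20, Fos, Junb and Hspa1a among them, did not pass. Jund, the AP-1 subunit, measured 642, 602, 606, 694 and 665 in VIIa.b replicates 1 to 5 and 1025, 1192, 1140, 1077 and 1130 in VIIc.d replicates 1 to 5 and rose by 0.79 on the log2 scale (SE 0.12, 1.73-fold, adjusted p = 9.81e-06). Egr1 went from 118 ± 4.92 to 193 ± 37.6, highest in VIIc.d replicates 2 and 3, and its adjusted p of 0.0201 became 0.245 without them, 0.0694 without replicate 2 alone and 0.069 without replicate 3 alone.

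Signals of markers of cells outside the seminiferous epithelium were summed in each sample, and none of these markers was listed at 0. Leydig cell markers, 12 measured, summed to 1344 to 1489 in VIIa.b and 1152 to 1309 in VIIc.d, most of it from Fdx1, which fell from 1011 ± 84.4 to 740 ± 34.1. The steroidogenic genes Cyp17a1 and Hsd3b1 were near the floor, at 7.65 ± 3.12 to 13.6 ± 8.29 and 4.85 ± 1.95 to 21.9 ± 24.4, and did not pass. VIIc.d replicate 1 had 64.9 for Hsd3b1. Brighter Leydig cell markers did not pass either. Cyp11a1, Insl3, Lhcgr and Star averaged 79.5, 67, 56.7 and 50.3 in VIIa.b and 77.7, 60.3, 68.2 and 58.6 in VIIc.d. The median log2 change of the Leydig cell list was 0.30. Peritubular myoid markers, 12 measured, summed to 886 to 1029 and 1010 to 1181, with Acta2, smooth muscle actin, rising from 199 ± 27.8 to 298 ± 44.3 (adjusted p = 0.0131, 0.0566 without VIIa.b replicate 3 and 0.0563 without VIIc.d replicate 5). A dim probe set of the collagen gene Col1a1 was called, from 18.6 ± 13.1 to 46.9 ± 8.75, with adjusted p = 0.0845 without VIIa.b replicate 3 and 0.0675 without VIIa.b replicate 5. The brightest Col1a1 probe set averaged 77.8 in VIIa.b and 77.5 in VIIc.d and did not pass (adjusted p = 0.996). Macrophage and blood markers, 15 measured, summed to 2905 to 3173 and 3226 to 3460, most of it from Aif1, which averaged 2466 and 2797 and did not pass (adjusted p = 0.787). The list median was -0.21, and the single gene that passed, Mrc1, fell from 97.2 ± 11.6 to 60.1 ± 15.7. Endothelial markers, 11 measured, summed to 378 to 510 and 382 to 429 and none passed. The part of these cells in the changes above was not tested.

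Some further named genes did not pass in the fits that address the GAPDH ratio. With the GAPDH covariate the adjusted p was 0.061 for Clu, 0.0756 for Inhbb, 0.0848 for Agfg1, 0.0524 for Crem, 0.0526 for Col1a1, 0.062 for Acta2 and 0.156 for Egr1. Without VIIc.d replicates 2 and 3 it was 0.0916 for Dnm3 and 0.0596 for Ctsk. Tsx had 0.133 and 0.0939, Tex15 0.126 and 0.0796, Tex101 0.163 and 0.162, Tbpl1 0.0734 and 0.0505, and Smim3 0.167 and 0.0785 in these 2 fits, in that order. Each kept the direction of its change.

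The level of each called probe set was followed over the 10 stage groups. Of the 152 probe sets higher in VIIc.d, 59 had their highest mean in stage VIII, 43 in VIIc.d itself and 30 in IX-XI, and 48 had their lowest mean in VI. Of the 110 lower ones, 40 peaked in VI, 26 in IV-V and 22 in VIIa.b. Their lowest means were spread over VIIc.d (27), XII (23), IX-XI (21) and XIII-XIV (19). Spam1 went from 2713 ± 226 in VI through 1761 and 640 to 187 ± 79.1 in VIII. Prm2 went from 359 ± 108 in VI to 5206 ± 1078 in VIII and 8135 ± 2075 in IX-XI. The stage means of Mark4 were highest in VIIc.d and VIII, at 192 and 246 ± 85.8, with 34.2 in VI and 31.6 in IX-XI. Wapl had its trough in VIIc.d and was back at 146 ± 21.6 in XIII-XIV.

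**Figure D4:**
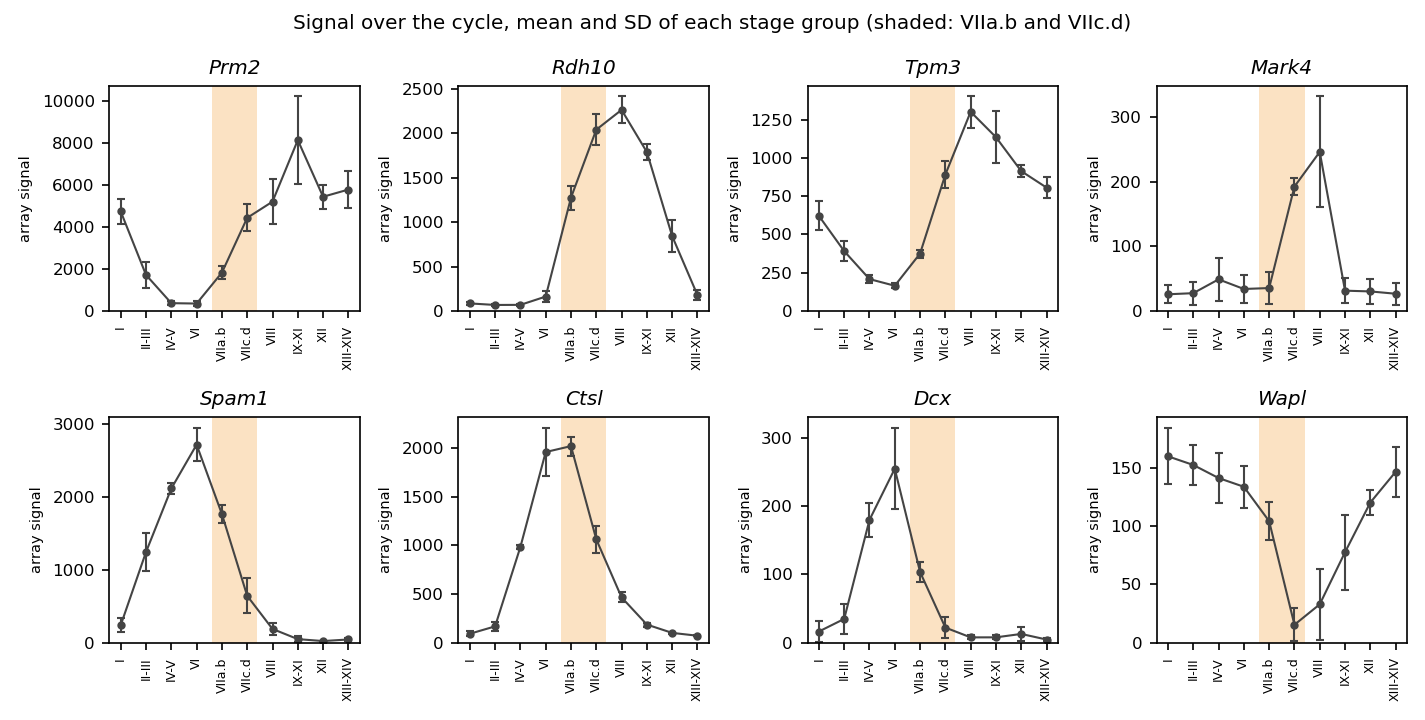
Mean signal ± SD over the 10 stage groups (horizontal axis, in order of the cycle) for 8 genes, 4 higher in VIIc.d (top) and 4 lower (bottom), with VIIa.b and VIIc.d shaded. Mark4 has its highest means in VIIc.d and VIII, Spam1, Ctsl and Dcx decline from VI or VIIa.b, and Wapl has its lowest mean in VIIc.d.

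Stages VI and VIII, on either side of stage VII, gave samples whose levels do not enter the difference between VIIa.b and VIIc.d, although all 49 tubule arrays share the fit's estimate of the spread. In these samples the GAPDH ratio averaged 1.11 ± 0.115 in VI and 1.34 ± 0.241 in VIII, and the actin ratio 1.97 and 1.94. The ratio of a further control, hexokinase, averaged 2.72 in VI, 2.66 in VIIa.b, 3.42 in VIIc.d and 4.81 in VIII. It was 8.05 and 7.52 in VIII replicates 4 and 5. The part of RNA integrity in the change from VI to VIII was not tested. From VI to VIII 20.0% of probe sets changed with an adjusted p under 0.05, 11.1% upwards and 8.94% downwards. Of the 152 probe sets called higher in VIIc.d, 112 (73.7%) also rose from VI to VIII, with a median of 1.85 on the log2 scale, and 39 did not pass. Of the 110 called lower, 85 (77.3%) also fell, with a median of -2.15, and none rose. Among all probe sets with a positive difference from VIIa.b to VIIc.d, called or not, 17.4% rose from VI to VIII, and among those with a negative one 17.4% fell. The probe sets past 2-fold in both were 109 upwards, which is 71.7% of the 152 and 9.07% of the 1202 from VI to VIII, and 82 downwards, which is 74.6% of the 110 and 7.76% of the 1057.

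A single called probe set went opposite ways in the 2 comparisons. Smim3, a small membrane protein, measured 3.05, 3.06, 5, 4.01 and 8.8 in VIIa.b replicates 1 to 5 and 10.4, 11.8, 23.4, 26.9 and 12.8 in VIIc.d replicates 1 to 5, all far below the table median of 43.7. It rose by 1.13 on the log2 scale (SE 0.30, 2.19-fold, adjusted p = 0.0173) and fell by 1.59 from VI to VIII (adjusted p = 4.53e-05). Its first call was lost in 6 of 20 alternatives, among them those without VIIa.b replicate 2 (adjusted p = 0.0527), VIIc.d replicate 3 (0.0637) or VIIc.d replicate 4 (0.078). Usp8 was an example that did not carry over, with 71.8 in VI and 64.6 in VIII (adjusted p = 0.783) against 14.3 in VIIc.d. Fam20b, at 28.7 and 52.1 (adjusted p = 0.0743), also did not pass from VI to VIII.

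**Figure D5:**
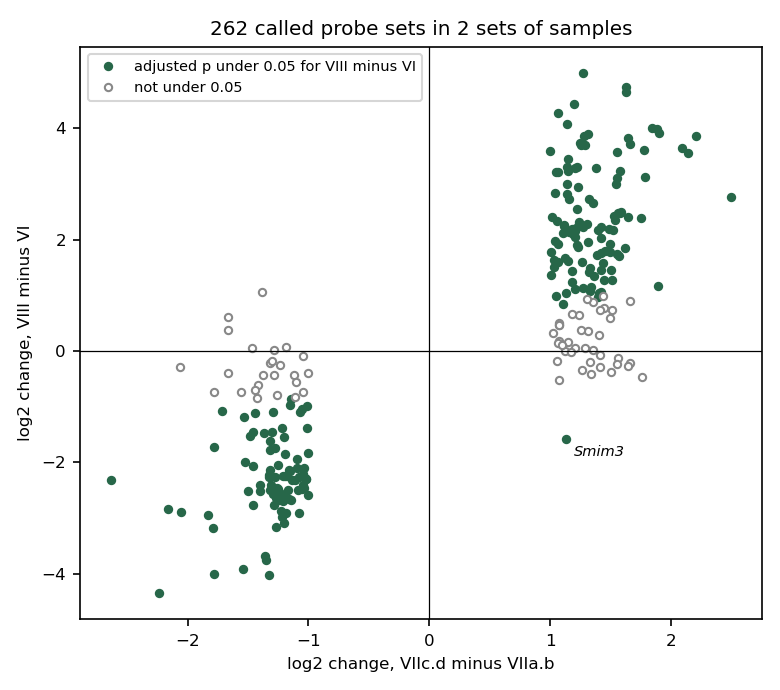
Log2 change from VI to VIII (vertical axis) against that from VIIa.b to VIIc.d (horizontal axis) for the 262 called probe sets, filled where the adjusted p from VI to VIII is under 0.05. The filled points lie in the upper right (112) and lower left (85) parts of the plot, apart from Smim3.

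Isolated cells of the same series, which by their labels were enriched and not pure, showed where the called transcripts were measured outside the tubule. A probe set was counted for a cell group when its mean there was at least 4-fold above each of the other 3 groups. Of the 110 probe sets lower in VIIc.d, 24 (21.8%) were enriched in round spermatids and 8 (7.27%) in Sertoli cells, against 1.32% and 1.66% of all probe sets. None was enriched in pachytene spermatocytes or in spermatogonia with early spermatocytes, kinds that held 0.164% and 0.957% of all probe sets. The other 78 (70.9%) belonged to no group, against 95.9% of all. Spam1 had 1771 ± 85 in 4 round spermatid samples and 30.5 ± 22.9 in 4 Sertoli cell samples. Tmem81, Togaram1, Tesk2 and Fam151b were also of the round spermatid kind. Dcx, Gpc4, Reep1 and A2m were of the Sertoli cell kind, with 247 ± 123 for Dcx in Sertoli cells and 3.52 ± 0.522 in round spermatids.

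Of the 152 probe sets higher in VIIc.d, 11 (7.24%) were enriched in Sertoli cells and 7 (4.61%) in round spermatids. Pachytene spermatocytes had 3 (1.97%), spermatogonia with early spermatocytes 1 (0.658%), and 130 (85.5%) belonged to no group, against 0.164%, 0.957% and 95.9% of all probe sets. No test was made of the difference between the directions. Fstl3 and Inhbb were among the Sertoli cell genes, with 934 ± 116 and 471 ± 57.5 there. Prm2, Prkar2a and Srcin1 were among the round spermatid genes. Phf1 was enriched in pachytene spermatocytes, at 613 ± 73.7. Prm2 itself averaged 1753 ± 532 in isolated round spermatids and 4437 in VIIc.d tubules. Elongating spermatids, which carry late spermatid transcripts in tubules, were not among the isolated cell groups analysed here. Sertoli cells, pachytene spermatocytes and round spermatids came from rats of 55 to 60 days, and spermatogonia with early spermatocytes from rats of 18 to 20 days.

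The promoters of the called genes were searched for 3 motifs, on both strands of 250 bases before to 50 bases after the start of each gene in RefSeq (GRCr8). The cyclic AMP response element TGACGTCA, the site of CREM, lay in the window of 1 of 100 genes that rose (1.0%) and 1 of 78 that fell (1.28%), against 2.86% of 11700 genes on the array and 1.91% of all 27457 promoters. The retinoic acid response element of direct repeat type with 5 spacer bases and the palindromic androgen response element, each in its consensus spelling, were in none of these windows. The first was in 0 of the 11700 genes on the array and 0.0109% of all promoters, and the second in 0.359% and 0.423%. The risen gene was Maff, a small transcription factor of the Maf family, named here for its motif. It measured 37.6, 5.45, 41.8, 19.9 and 23.7 in VIIa.b replicates 1 to 5 and 84, 52.7, 75.4, 77.6 and 100 in VIIc.d replicates 1 to 5, without overlap, and rose by 1.58 on the log2 scale (SE 0.35, 2.99-fold, adjusted p = 0.00242). The fallen gene was Cdadc1, whose called probe set had 132, 116, 110, 97.2 and 123 in VIIa.b replicates 1 to 5 and 74, 51.6, 80, 47.5 and 32.5 in VIIc.d replicates 1 to 5, also without overlap. It fell by 1.01 on the log2 scale (SE 0.22, 2.01-fold, adjusted p = 0.00167), and 3 other Cdadc1 probe sets did not pass. Both promoters are printed beside that of Spam1, the brightest fallen gene, as the 250 bases before the start, 5' to 3' on the gene's strand, with the element in capitals. Maff lies at chr7:112792537-112792786 (plus strand) and its element starts 51 bases before the gene. Cdadc1 lies at chr15:37931785-37932034 (minus strand) and its element starts 54 bases before the gene. Spam1 lies at chr4:54268037-54268286 (plus strand) and its window held none of the motifs as spelled.
Maff: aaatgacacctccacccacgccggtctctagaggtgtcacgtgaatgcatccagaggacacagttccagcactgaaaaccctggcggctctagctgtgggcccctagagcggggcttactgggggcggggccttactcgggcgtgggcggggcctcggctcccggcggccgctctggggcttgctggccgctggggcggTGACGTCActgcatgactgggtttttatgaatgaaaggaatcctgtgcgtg
Cdadc1: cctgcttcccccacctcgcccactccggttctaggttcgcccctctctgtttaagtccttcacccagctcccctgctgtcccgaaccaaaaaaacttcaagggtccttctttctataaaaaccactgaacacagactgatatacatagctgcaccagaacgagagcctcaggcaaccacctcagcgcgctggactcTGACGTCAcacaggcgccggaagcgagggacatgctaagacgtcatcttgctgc
Spam1: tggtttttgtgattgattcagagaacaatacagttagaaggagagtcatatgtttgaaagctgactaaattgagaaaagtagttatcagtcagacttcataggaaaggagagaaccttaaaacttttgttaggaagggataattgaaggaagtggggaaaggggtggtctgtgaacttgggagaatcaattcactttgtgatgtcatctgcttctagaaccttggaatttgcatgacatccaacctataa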

How the data were processed

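RNA of stage VIIa.b and VIIc.d tubules (5 samples each) was hybridised to Affymetrix rat arrays, 6 ug of total RNA per sample per the labels' protocols. The deposited values are linear intensities per probe set from MAS5, per the submitters' processing notes. Their trimmed mean is 100 on each array, as found from the values. No version of MAS5 is given by the sources here, and detection calls were not used. Log2(intensity + 5.11) was computed from the deposited intensity, 5.11 being the 10th percentile of the table, so dim probe sets have understated changes. All 31042 probe sets other than the manufacturer's controls were fitted over the 49 tubule arrays with limma 3.58.1 (lmFit, eBayes with trend, R 4.3.3), two-sided, with Benjamini-Hochberg adjustment. A probe set was called at adjusted p under 0.05 and 2-fold. Rose and fell mean adjusted p under 0.05. The unadjusted p was under 0.05 in 4489 probe sets. On simulated data for this comparison over 31042 probe sets, 23 of 50 probe sets changed by 1 on the log2 scale were called, 45 of 50 at 1.5 and 50 of 50 at 2, with 6 false calls. A change of 1 lies at the 2-fold threshold itself. Changes were placed only in probe sets with a mean above 43.7. The noise was independent and normal, with the same spread in every stage, so dim probe sets and arrays of high control ratio were not covered.

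The platform annotation paired 20826 probe sets with 1 gene, 436 with several and 9780 with none; symbols were updated through RefSeq for 20760. Genes named are the 12 largest called rises and falls with 1 gene, no overlap and a mean above 43.7 in the higher stage, every called member of a list, and up to 4 members a list by size of change, or 3 by level where none passed; others are said to be picked after their values were seen. Stra8, which the rule also named, had no probe set named for it. The members and lists were chosen with earlier results of these data known. The labels call the 5 samples of a stage independent. They give shared replicate numbers without saying what a number stands for. Alternatives were other pseudocounts, a filter on low values, quantile normalization, the 10 samples alone, a replicate block, the GAPDH ratio as a covariate, VIIc.d replicates 2 and 3 left out, array weights, no variance trend and each array left out. Promoters are those of RefSeq on GRCr8. The number of arrays limits the precision.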

Additional observations from a re-analysis of the deposited data

Results flagged for a closer look

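Of 126 groups of 5 samples checked among the named probe sets, 5 held 1 sample far from the other 4 (Dixon's test), and chance flags about 1 in 20 groups. Bace2 had 42.6 in VIIa.b replicate 3 and 72.6 to 80.5 in the other VIIa.b samples. Smpd1 had 181.4 in VIIc.d replicate 3 and 196.6 to 202.5 in the others. A Tpm3 probe set had 125.2 in VIIc.d replicate 4 and 173.6 to 197.8 in the others. Ubald1 had 132.8 in VIIa.b replicate 3 and 159.5 to 164.9 in the others. Atosb had 608.1 in VIIc.d replicate 1 and 708.7 to 737.6 in the others. In none of the 5 genes did that sample lie within the range of the opposite stage.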

How the results depend on the processing

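No called probe set was called in the opposite direction under any alternative run. With the table median as pseudocount the calls dropped from 262 to 67 (43 higher, 24 lower), and those that also changed from VI to VIII from 197 to 63, since a larger pseudocount shrinks the log2 changes of dim probe sets. Leaving out 1 array gave 215 to 328 calls, 122 to 161 higher and 93 to 167 lower, the highest without VIIc.d replicate 1, and 163 to 231 that also changed from VI to VIII. All other alternatives kept the count of calls within 1.5 times. Of 3170 values of named probe sets under alternatives, 2938 kept their side of the threshold, 186 lost the test and 46 gained it. The GAPDH ratio difference was 0.36 to 0.56 with 1 array left out, and 0.20 with the middle probe set in place of the 5' one (exact permutation p = 0.206). That of actin was 0.17 to 0.34 with 1 array left out. Same-numbered samples of the 2 stages had correlated deviations of 0.09 to 0.27 over 16072 probe sets, not all above 0.1. Each of the 5 nevertheless correlated best with its own number. The labels do not say what a number stands for, so the main fit had no replicate block. Whether same-numbered samples shared rats or handling was not tested. With the replicate block there were 290 calls (164 higher, 126 lower), among them all 262 original ones, and 208 of the 290 also changed from VI to VIII. In that pairing the exact sign-flip permutation p over the 5 numbers was 0.0625 for the GAPDH ratio difference of 0.471, the smallest that 5 pairs allow, and 0.125 for actin.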
